A study of Homo sapiens with 4 samples.

Results

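The 66720 regions described here are the complete list that the authors deposited for doxorubicin (Doxo) against untreated control in K562 cells, every one a stretch of DNA with more ATAC-seq reads after the drug. They are 66720 of the 180799 entries in the series' 3 lists of gained regions, beside 52784 for N,N-dimethyldoxorubicin (diMe-Doxo) and 61295 for aclarubicin (Acla). The Doxo group was K562 exposed to 10 µM Doxo for 4 h and the control group was K562 without drug, with 1 GEO sample and 2 libraries in each, called 1 and 2 by their column in the list. Whether both libraries of a group stem from 1 culture or from several is not given in the labels, so their spread may be technical. All 3 lists use the same 2 control libraries, and values of diMe-Doxo (10 µM, 4 h) and Acla (20 µM, 4 h) stand beside those of Doxo below without a test. The authors picked the regions for their gain in these 4 libraries, so the direction of every region is given by the list and is not a finding.

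ATAC-seq uses a transposase that inserts sequencing adapters where DNA is not wrapped tightly, so read density follows the openness of chromatin. Promoters and enhancers in use are open, and genes of other lineages are usually packed with nucleosomes. Doxorubicin is an anthracycline that slides between DNA bases, traps topoisomerase II on broken DNA and can push histones out of chromatin. K562 is an established leukaemia line of erythroid and myeloid character that carries the BCR-ABL1 fusion and lacks functional p53. In a culture of many cells, a region open in more cells and a region open more widely in each cell cannot be told apart.

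The list is in the GRCh37 build, and gene names were attached to it from known GRCh37 gene spans, as set out with the processing. The sequences of the listed regions themselves were not analysed here. Promoters of 6 genes are shown so that gains at gene starts can be read beside their sequence: the listed regions cover or lie within 1 kb of the starts of TLX3, SRSF12, NEUROG1, SOX1 and CD14, while no listed region lies at GATA1. Each is the RefSeq window of 300 bases around the gene's start in GRCh38.p14, printed 5′ to 3′ on the gene's own strand, with CG dinucleotides in capitals.
TLX3: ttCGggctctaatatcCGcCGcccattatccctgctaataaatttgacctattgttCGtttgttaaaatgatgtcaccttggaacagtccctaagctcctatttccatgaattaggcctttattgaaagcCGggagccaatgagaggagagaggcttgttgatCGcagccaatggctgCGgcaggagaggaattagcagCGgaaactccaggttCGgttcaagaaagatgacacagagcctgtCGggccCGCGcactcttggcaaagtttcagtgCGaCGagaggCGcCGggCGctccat
SRSF12: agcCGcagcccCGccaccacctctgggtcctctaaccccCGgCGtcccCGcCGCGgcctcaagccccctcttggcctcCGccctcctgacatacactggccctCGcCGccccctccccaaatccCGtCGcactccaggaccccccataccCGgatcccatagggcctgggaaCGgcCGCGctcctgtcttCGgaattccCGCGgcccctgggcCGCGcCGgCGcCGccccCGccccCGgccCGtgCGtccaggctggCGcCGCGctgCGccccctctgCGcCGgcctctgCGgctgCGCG
NEUROG1: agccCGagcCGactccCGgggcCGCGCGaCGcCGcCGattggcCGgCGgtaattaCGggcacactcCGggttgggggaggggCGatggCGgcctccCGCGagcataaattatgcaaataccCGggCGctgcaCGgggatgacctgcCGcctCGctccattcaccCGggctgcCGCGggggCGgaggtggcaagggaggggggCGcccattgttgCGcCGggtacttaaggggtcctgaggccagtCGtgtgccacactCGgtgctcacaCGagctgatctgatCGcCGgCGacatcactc
SOX1: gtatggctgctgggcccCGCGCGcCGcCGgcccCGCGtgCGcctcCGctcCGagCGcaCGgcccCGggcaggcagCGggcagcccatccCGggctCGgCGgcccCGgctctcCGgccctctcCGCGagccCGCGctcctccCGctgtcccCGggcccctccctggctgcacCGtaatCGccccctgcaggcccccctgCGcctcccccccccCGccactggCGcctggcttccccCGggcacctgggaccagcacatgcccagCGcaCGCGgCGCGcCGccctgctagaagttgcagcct
CD14: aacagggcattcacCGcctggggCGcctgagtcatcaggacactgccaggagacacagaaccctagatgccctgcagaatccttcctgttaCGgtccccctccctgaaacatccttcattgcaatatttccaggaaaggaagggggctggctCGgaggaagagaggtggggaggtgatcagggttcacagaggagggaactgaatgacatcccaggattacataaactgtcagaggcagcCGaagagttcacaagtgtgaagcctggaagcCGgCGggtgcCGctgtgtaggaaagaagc
GATA1: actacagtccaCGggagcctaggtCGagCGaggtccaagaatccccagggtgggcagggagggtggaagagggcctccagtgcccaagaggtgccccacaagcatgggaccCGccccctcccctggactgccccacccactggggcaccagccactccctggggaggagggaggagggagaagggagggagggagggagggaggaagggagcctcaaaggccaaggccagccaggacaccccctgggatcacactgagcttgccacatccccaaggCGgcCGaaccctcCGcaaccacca

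In GRCh38.p14 these windows are chr5:171308998-171309297 (TLX3, plus strand), chr6:89118022-89118321 (SRSF12, minus), chr5:135535915-135536214 (NEUROG1, minus), chr13:112066899-112067198 (SOX1, plus), chr5:140633126-140633425 (CD14, minus) and chrX:48786340-48786639 (GATA1, plus). SRSF12 and SOX1 held 37 CG each, NEUROG1 35 and TLX3 17, while CD14 held 8 and GATA1 7. The median over all 35116 RefSeq promoters was 14. Gains therefore stood at starts both rich and poor in CG. Over the genes of the gene groups below, the 13 with a region at the start had a median of 20 CG (from 4 to 37) and the 59 without one a median of 25 (from 1 to 53). The letters GGGCGG, read on either strand, were present in 44.95% of all RefSeq promoters and in each of the 6 windows except CD14. TATAAA, on either strand, was present in 11.53% of all promoters and in none of the 6.

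Reads rose from near the lowest deposited level. A listed region held a median of 38 and 41 reads in the 2 Doxo libraries and of 1 and 1 in the control libraries. These medians are per library. Summed over both controls the median was 5 reads, and 24.97% of regions had 1 read in each. The highest region held 1578 and 1725 reads with Doxo and 246 and 288 in the controls. Inside the list the Doxo libraries summed to 4405541 and 4837225 reads and the controls to 248362 and 253175. Reads outside the list are not in these sums, so the libraries' full depth is unknown. The authors scaled 1 read to 0.711 and 0.704 with Doxo and to 1.44 and 1.39 in the controls. With that scaling the authors' log2 fold was 2.95 at the median, 4.39 at the 90th percentile and 8.63 at most, and pairing each Doxo with each control library gave medians from 3.15 to 3.34. The pair medians lie above the authors' value because theirs uses the mean of both controls, which the higher control dominates.

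The lower Doxo library exceeded the higher control library in normalized signal at 66689 regions (background over the list 100%), and 31 regions overlapped. The authors' false discovery rate (FDR) was at most 0.05 at 54199 regions, 81.2% of the list, and above it at 12521. With the FDR limit set at 0.01 and the log2 fold limit at 2, 32564 regions were left (48.8%). edgeR's quasi-likelihood test on the recovered reads called 62521 higher at an adjusted p of at most 0.05 (93.7%) and 0 lower, with 63088 higher at an unadjusted p of at most 0.05. These regions were chosen as gained from the same libraries, so these counts describe the list and support nothing. With either Doxo library left out, edgeR called 18012 (without Doxo 1) or 17423 (without Doxo 2), and with factors re-centred on the list by TMM it called 0.

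At the list's lower edge the gain was small. A region at chr3:42545549-42546154 with a log2 fold of 1.5 held 53 and 49 reads with Doxo and 10 and 8 in the controls. At the highest listed p, chr4:623484-623841 held 35 and 40 reads against 9 and 1. Just 160 regions had a log2 fold under 1.6, and 1788 had a p over 0.045. Regions outside the limits were not analysed here.

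Most gains stood where the authors had called no peak in untreated cells. There were 55089 regions (82.6%) without a control peak, 6669 with a peak in 1 control library (9.995%) and 4962 with a peak in both (7.44%). Median reads per library in the class without a peak were 33 and 36 with Doxo against 1 and 1, where the control means were 2.71 and 2.81. In the class with both peaks they were 109 and 119 against 8 and 8. The deposited fold was lower where the control was already open: its median was 3.0 without a control peak (3.23 to 3.39 over library pairs), 2.85 with 1 peak and 2.55 with both (2.61 to 2.77 over library pairs). Width went the other way, with medians of 751, 1005 and 1367 bp. Control signal is also the divisor of the fold. A lower fold at higher control is therefore in part arithmetic and is not a finding about chromatin. The 676 regions with more than 50 control reads in all had a median log2 fold of 2.12, and 3.55% of them were listed for diMe-Doxo and 0.740% for Acla, against 49.7% and 49.1% of the whole list.

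A deposited control value of 1 read was frequent and was not limited to closed sites. It was present at 55.8% of regions in control 1 and 57.4% in control 2, and in both at 16662 regions (24.97%). No listed control value was lower, so empty regions may have been given this value, and a fold over it depends on this floor. Among the 4962 regions with a peak in both control libraries, 1985 (40.004%) had the value 1 in at least 1 of them, and 73 had it in each. At such regions the deposited value and the authors' own peak call go against each other. A floor or a subtraction that the sources do not state could set such values, and this was not tested. The values called reads here would then not be plain counts, and ratios and counting intervals that rest on them would not be exact.

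The highest folds were at sites that were nearly empty in the controls, which a ratio over control reads favours by itself. The region of lowest FDR, chr5:138726893-138729275, overlaps PROB1, which codes for a proline-rich protein. It held 748 and 839 reads with Doxo and 1 and 1 in the controls. The authors' log2 fold was 8.63, with 5.94 for diMe-Doxo and 5.43 for Acla. The ratio of normalized reads was 397 with an exact 95% counting interval of 110 to 3280, which covers counting error only.

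TLX3 codes for a homeobox factor of developing neurons. Its start lies in chr5:170736204-170738871, which held 727 and 808 reads with Doxo and 2 and 2 in the controls (authors' log2 fold 7.58). SRSF12 codes for a splicing regulator, and its start lies in chr6:89826991-89829229. That region held 470 and 568 reads with Doxo and 1 and 1 in the controls (ratio 260, counting interval 71.7 to 2146). The authors' log2 fold was 8.02, with 5.45 for diMe-Doxo and 4.03 for Acla. NYX, a proteoglycan of the retina, overlaps chrX:41332376-41334261, which held 445 and 533 reads with Doxo and 1 and 1 in the controls (ratio 245, counting interval 67.5 to 2022). These regions were picked for their FDR or fold, so Doxo reads far above both controls are given by that choice.

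SCOC, a coiled-coil protein of the Golgi, overlaps chr4:141208753-141211247, with 698 and 810 reads against 1 and 2 (ratio 253, counting interval 86.4 to 1228). On chromosome 10, chr10:22623238-22625852 lies between BMI1, a Polycomb gene, and SPAG6, a sperm flagellum gene, and held 631 and 696 reads against 2 and 1 (ratio 220, counting interval 75.1 to 1068). Farther along, chr10:22764706-22767183 held 510 and 552 against 1 and 1 (ratio 266, counting interval 73.4 to 2196). No gene was placed on either. All 7 of these regions lacked a control peak, had a peak in both Doxo libraries, and were also in the diMe-Doxo and Acla lists, with log2 folds there from 3.54 to 5.94. Over the whole list, 426 regions had a log2 fold of 6 or more. Of these 94.1% were also listed for diMe-Doxo and 91.1% for Acla, against 26.0% and 26.5% of the 2774 regions with a fold under 2. The lists share their controls, and higher Doxo reads stand beside this order, with medians of 223 and 246.5 reads in the top class. The part of the controls and of depth was not tested.

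**Figure D1:**
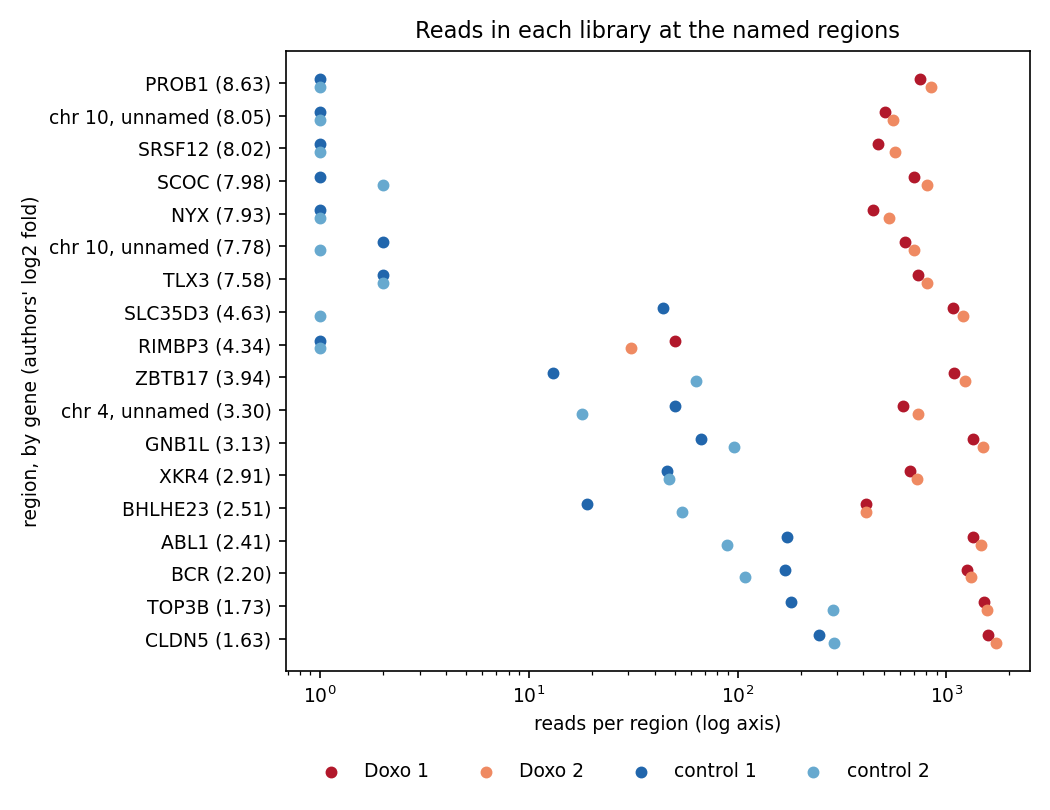
Reads in each of the 4 libraries (log axis) at 18 named regions, ordered by the authors' log2 fold in brackets, with red and orange points for Doxo 1 and 2 and blue points for control 1 and 2. Regions of the highest fold had 1 or 2 control reads, while CLDN5, the region of highest Doxo reads, had 246 and 288.

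The 5 regions of highest Doxo signal had a peak in both controls, and 4 of them lay on chromosome 22. Among all 471 regions with a mean of 500 Doxo reads or more, 42.3% had no control peak. The widest region of the list, chr22:19509368-19514730 (5362 bp), overlaps CLDN5, a tight junction gene, and held 1578 and 1725 reads with Doxo against 246 and 288 (authors' log2 fold 1.63). TOP3B, a topoisomerase gene, overlaps chr22:22313651-22317303, with 1510 and 1568 reads against 181 and 286 (log2 fold 1.73). GNB1L overlaps chr22:19806353-19810658, with 1344 and 1503 reads against 67 and 96 (log2 fold 3.13). In all 3 the Doxo libraries stood close together, and their place above both controls is given by the list.

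The fusion partners of K562 were the other 2 of these 5 regions. ABL1, a tyrosine kinase gene, overlaps chr9:133759475-133762596, with 1341 and 1461 reads against 173 and 89 (log2 fold 2.41). BCR overlaps chr22:23604288-23606887, with 1248 and 1306 reads against 169 and 108 (log2 fold 2.20). These regions lie in or near segments with many copies in K562, as is known for the fusion, and control reads were high across them. In the 1 Mb window of chromosome 22 from 22 to 23 Mb, 41 listed regions had means of 23.9 and 32.9 control reads and 250 and 263 Doxo reads, with a median log2 fold of 2.29. The next window, 23 to 24 Mb, had 29.3 and 19.6 control reads and a median of 2.01. Over the 1151 windows with at least 20 listed regions the median window had 3.38 and 3.20 control reads. None of these 5 regions was in the diMe-Doxo or Acla list. Each had more than 50 control reads in all, and of the 676 such regions just 3.55% and 0.740% were in those lists.

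Other large gains at regions with a peak in both controls were on other chromosomes. SLC35D3, a sugar transporter gene whose start lies in chr6:137242494-137245708, had 1069 and 1203 reads with Doxo and 44 and 1 in the controls, which were far apart from each other. ZBTB17, which codes for the MYC partner MIZ1, overlaps chr1:16268901-16272743, with 1082 and 1220 reads against 13 and 63. Among the widest regions, chr4:100570438-100575669 (5231 bp) held 616 and 732 reads against 50 and 18. On chromosome 8, 4884 bp at XKR4, a scramblase family gene, held 672 and 725 against 46 and 47. BHLHE23, a neural transcription factor gene, has its start in chr20:61636804-61641439 (4635 bp), with 411 and 412 reads against 19 and 54. RIMBP3, a sperm gene, has its start in chr22:20457409-20461997 (4588 bp), with just 50 and 31 reads against 1 and 1, although a peak had been called in all 4 libraries. RIMBP3 has near-identical copies on chromosome 22, between which reads may be split, so its values are uncertain.

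Wider regions had a higher median log2 fold, by a small margin. The median log2 fold was 2.82 for the 15690 regions under 500 bp, 2.91 from 500 to under 1000 bp, 3.07 from 1000 to under 1500 bp, 3.21 from 1500 to under 2000 bp, 3.33 from 2000 to under 2500 bp and 3.30 for the 914 regions of at least 2500 bp. The difference between regions of at least 2500 bp and those under 500 bp was 0.47 on the log2 scale. It was 0.82 without control 1 and 0.28 without control 2, so leaving out either control moved it by over 1.5 times. Read density did not follow width in the same way. Regions under 500 bp had 91.6 and 98.6 reads per kb with Doxo, those of 1000 to under 1500 bp 62.0 and 68.4, and those of at least 2500 bp 122.6 and 134.5. Control density was 5.47 and 6.37 reads per kb in the narrowest class, 3.43 and 3.38 in the middle class and 7.20 and 6.80 in the widest. Median reads per library under 500 bp were 24 and 26 with Doxo and 1 and 1 in the controls. In the widest class they were 310 and 346.5 against 13 and 10. Folds of narrow regions thus often rest on a control value of 1 read, and the part of this in the width difference was not tested.

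Width and control class moved together. The share with no control peak fell from 91.8% under 500 bp to 87.2%, 78.3%, 66.0%, 51.7% and 30.7% in the widest class, where 51.3% had a peak in both controls. Presence in the other lists was lowest for narrow regions: 21.3% of those under 500 bp were listed for diMe-Doxo and 20.0% for Acla, against 69.8% and 66.8% of those from 1500 to under 2000 bp. It was 54.7% and 49.3% in the widest class.

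**Figure D2:**
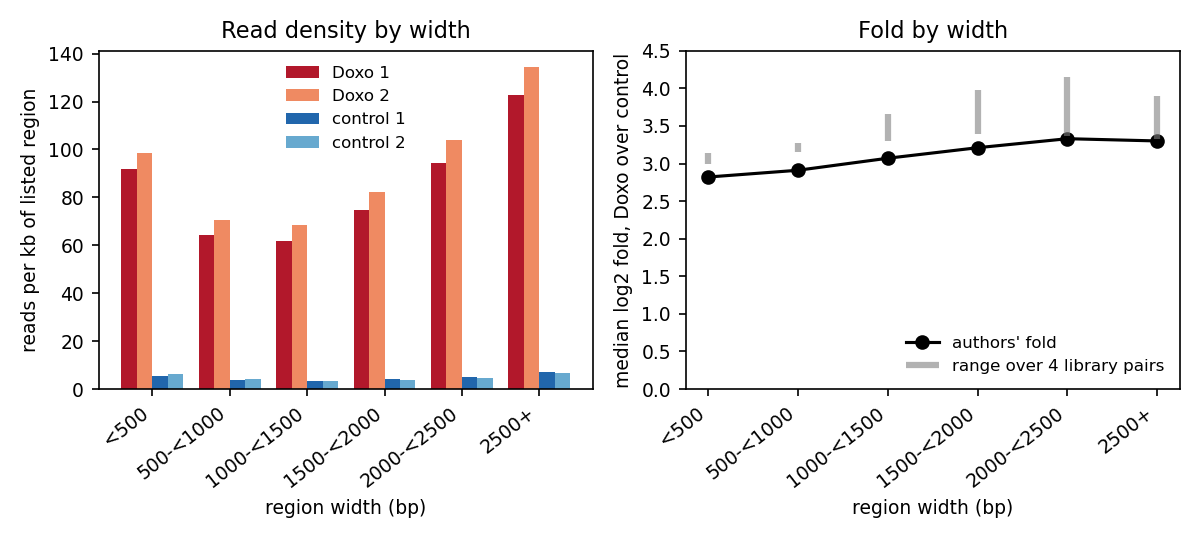
Left, reads per kb of listed region in each library for 6 width classes (bp); right, the median authors' log2 fold of Doxo over control (black points) with the range of medians over the 4 pairs of a Doxo and a control library (grey bars). Read density is lowest between 500 and 1500 bp, while the median fold climbs from 2.82 to 3.33 before the last class.

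Listed coordinates fell on all 24 chromosomes, with those on chromosome Y uncertain, and regions were often close together. The median distance to the next region was 11.8 kb, from 0.521 kb at the 10th to 112 kb at the 90th percentile, and 43064 regions (64.5%) lay within 10 kb of another. Joining regions less than 10 kb apart gave 35712 runs, of which 23656 were a lone region and 545 held 10 or more. The 7685 regions in those long runs (11.52%) had a median log2 fold of 3.36 and a median width of 669 bp, against 2.81 and 923 bp for lone regions. The share without a control peak was 74.8% in the runs and 87.1% for lone regions.

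Several genes and windows held many regions. MAD1L1, a gene of the spindle checkpoint, held 100 listed regions, and the 100 kb window from 1.9 to 2.0 Mb of chromosome 7 within it held 31 with a median log2 fold of 3.97, of which 12 were listed for diMe-Doxo and 13 for Acla. A 100 kb window of chromosome 4 from 1.3 to 1.4 Mb held 32 (median 4.00), with 14 and 10 in those lists. In the window from 3.4 to 3.5 Mb of chromosome 2, which overlaps TRAPPC12, a vesicle tethering gene, 30 regions had a median of 3.22, with 3 and 1 in those lists. A window of chromosome 1 from 1.1 to 1.2 Mb held 28, with 7 in each. In a median window with any region there were 2, and 114 of 19481 windows of 100 kb held 20 or more.

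Some stretches held no listed region. The longest ran from 38739926 to 65602464 on chromosome 9 (26.9 Mb) and from 120468411 to 144011983 on chromosome 1 (23.5 Mb), both across the centromere. A gap of 11.4 Mb on chromosome 9, from 20622794 to 31981422, holds CDKN2A, CDKN2B and MTAP, genes that K562 is known to have lost.

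The median fold differed little by chromosome, while the share of high folds and the control libraries differed more. Over chromosomes 1 to 22 and X, the median log2 fold ran from 2.86 on chromosome 1 to 3.18 on chromosome 19, and the share of regions with a fold of 5 or more from 2.81% on chromosome 1 to 7.10% on chromosome 17. On chromosome 19 control 1 had 2.82 reads per kb of listed region and control 2 had 6.34. On chromosome 17 they had 2.69 and 5.33, and on chromosome 16 3.45 and 6.04. The order was reversed on chromosome 4 (3.94 and 2.92) and chromosome 13 (3.01 and 2.43). The Doxo libraries kept the same order on each of these, for example 87.3 and 94.4 reads per kb on chromosome 19. A fold on chromosome 19 therefore depended on the control used: the medians over library pairs ran there from 3.08 to 4.10. What sets the 2 controls apart was not tested.

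**Figure D3:**
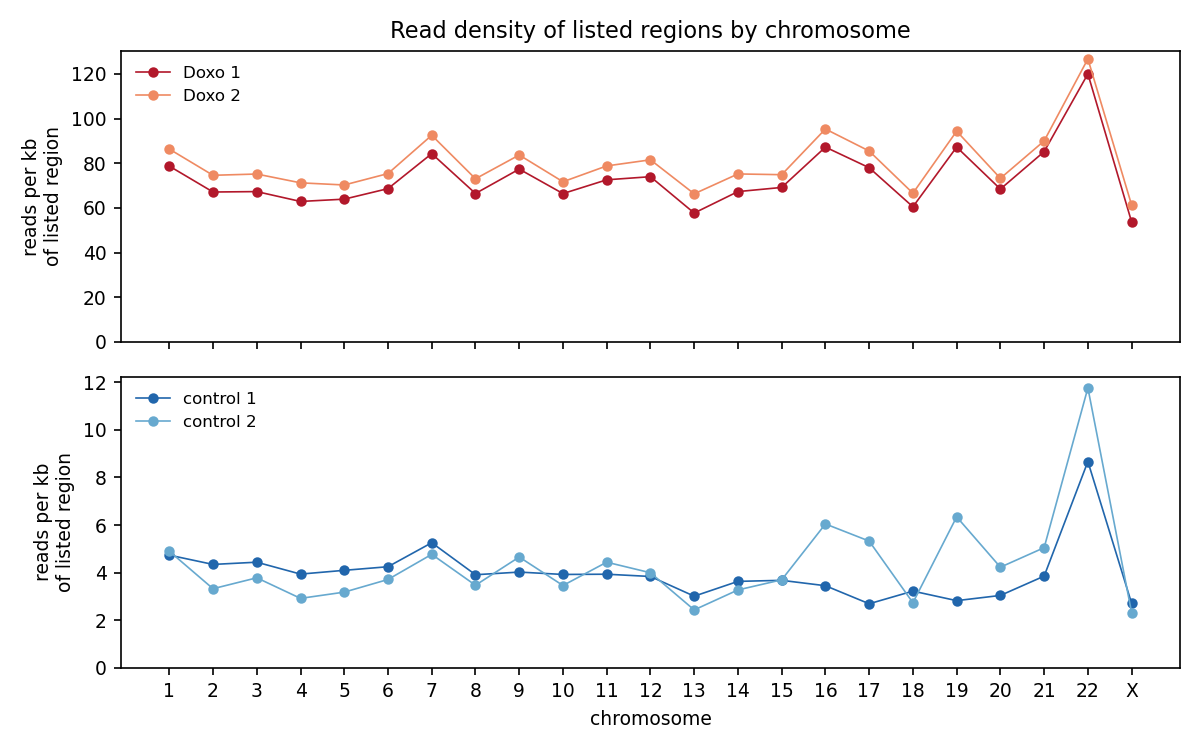
Reads per kb of listed region on chromosomes 1 to 22 and X, for the Doxo libraries (top) and the control libraries (bottom, on its own scale). Doxo 1 and 2 run in parallel on every chromosome shown, while control 2 exceeds control 1 on chromosomes 16, 17 and 19 and falls below it on chromosomes 4 and 13.

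The Doxo libraries agreed closely where reads were many. Over all regions the SD of the log2 ratio of Doxo 2 to Doxo 1 was 0.576, and 75.3% of regions were within 1.5-fold and 91.3% within 2-fold. The SD was 0.865 at the 13777 regions with a mean under 20 reads, 0.362 from 50 to under 100 reads and 0.0819 at the 471 regions with 500 reads or more, all of which were within 1.5-fold. Doxo 2 was the higher library at 61.0% of regions, with a median log2 ratio of 0.11. All 465 regions with more than a 4-fold difference had a mean under 50 reads. The mean squared difference between the Doxo libraries was 2.11 times that of counting noise over the list and 0.990 times at 500 reads or more.

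The control libraries did not agree in this way. Their log2 values had a Pearson correlation of -0.0341 across the 66720 regions, against 0.907 for the Doxo libraries, and 0.0587 across the 4962 regions with a peak in both controls. These describe regions of 1 list that share depth and the lowest control value of 1 read. The list was also chosen for gain in these 4 libraries, which bears on both correlations. They are therefore not a measure of library quality. The SD of the log2 ratio of the controls was 0.730 where the Doxo mean was under 20 reads and 2.97 from 200 to under 500 reads, so it grew where that of the Doxo libraries shrank. From a mean of 20 Doxo reads upwards the spread was larger between the controls than between the Doxo libraries. The control SD was 2.44 at the 42206 regions with 1 read in 1 control only. It was 1.30 at the 7852 regions with 2 or more reads in both controls, where the Doxo SD was 0.360.

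**Figure D4:**
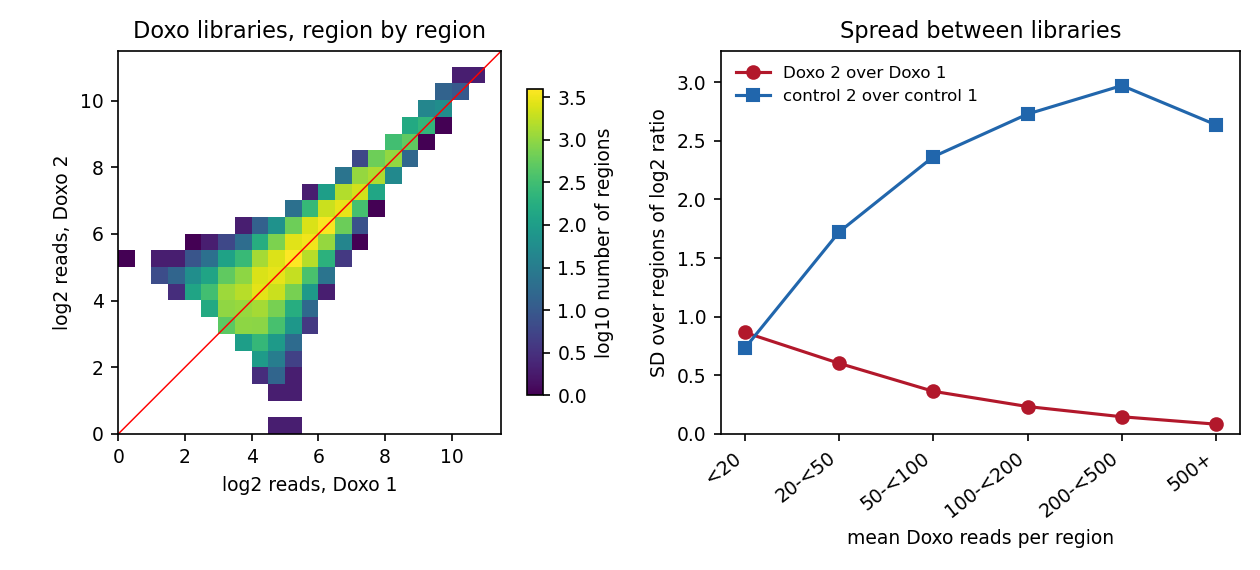
Left, number of regions (log10, colour) by log2 reads in Doxo 1 and Doxo 2, with equal reads as a red line; right, SD over regions of the log2 ratio between the 2 Doxo (red circles) and the 2 control libraries (blue squares) by mean Doxo reads. The Doxo SD falls from 0.865 to 0.0819 with depth, and the control SD climbs from 0.730 to 2.97 before the last class.

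Even at 50 reads or more some regions differed between the Doxo libraries. The largest difference was at chr4:127764290-127765373, with 25 and 80 reads, then chr7:107398595-107399754 with 34 and 107. A region in RIN3, a RAB5 regulator, went the other way with 79 and 26 reads, as did chr9:95991918-95993448 with 90 and 30. The fifth, chr2:106754326-106755705, held 27 and 80.

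A peak of their own was not needed for regions to be listed. The authors had called a peak in both Doxo libraries at 42281 regions (63.4%), in 1 at 16223 (24.3%) and in neither at 8216 (12.3%). At 7490 regions (11.2%) none of the 4 libraries had a peak. These had a median of 20 and 20 reads with Doxo and a median log2 fold of 2.65, and 85.6% of them were in the diMe-Doxo or Acla list, against 52.0% of the other regions. Presence in those lists was read from identical coordinates. Regions with no peak in these 4 libraries may have entered through peaks of the other drugs. The higher share may therefore be built in, and this was not tested.

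Gene groups were read by whether a listed region lay in the gene or within 1 kb of it. Of 107 genes of 7 groups that could be placed, 58 (54.2%) had one, and 13 of 72 with a known start (18.1%) had one within 1 kb of the start. Groups differ in gene length and in how many members could be placed, and the same share over all genes was not computed, so the counts are descriptions. All regions counted are gains by the list's own rule.

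Developmental transcription factors of other lineages specify nerve, gut, muscle and other tissues. These had a region at 23 of 28 placed genes and at 9 of 16 starts (12 within 2.5 kb). In 10 genes the highest log2 fold was 5 or more. TLX3 is described above. NEUROG1, a factor of early neurons, held 415 and 424 reads with Doxo at its start (chr5:134870436-134872384) against 3 and 1, a log2 fold of 6.70 (4.00 for diMe-Doxo and 3.17 for Acla). PAX9, a factor of tooth and thymus development, held 198 and 228 against 1 and 2 (ratio 71.5, counting interval 24.3 to 348). SOX1, a neural factor, held 270 and 314 against 1 and 4, a log2 fold of 5.89 (3.59 for diMe-Doxo and 2.38 for Acla). These 4 starts were picked for their fold, and each control had 4 reads or fewer at them.

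Other starts in the group, named after their values were seen, covered a wide range. NKX2-1 held 357 and 419 reads against 9 and 1, SOX2 291 and 331 against 20 and 5, CDX2 50 and 80 against 1 and 2, and OTX2 just 23 and 15 against 1 and 4. FOXA1, a pioneer factor, had the highest fold of the group, 7.61, with 345 and 434 reads against 1 and 1 in the gene but not within 1 kb of its start (ratio 195, counting interval 53.7 to 1611). PAX3, TBX5 and TLX1 were among the genes of the group with no listed region.

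Lymphoid and myeloid genes, most of which K562 does not use, had a region at 8 of 10 placed genes and at 1 of 4 starts (3 within 2.5 kb). The start within 1 kb was of CD14, a monocyte receptor for bacterial lipopolysaccharide, where chr5:140011251-140013115 held 295 and 346 reads with Doxo against 1 and 3, a log2 fold of 6.34 (3.59 for diMe-Doxo and 3.24 for Acla). CD8A, a T cell co-receptor named after its values were seen, held 279 and 294 against 1 and 3 in the gene.

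Erythroid genes, which K562 does use, had a region at 6 of 20 placed genes and at 0 of 11 starts (1 within 2.5 kb). None was listed at GATA1 or KLF1, master regulators of red cells, nor at the globin genes HBG1, HBG2, HBE1, HBZ, HBA1 and HBA2. The 6 with a region, none of them within 1 kb of a known start, were RUNX1, EPOR, ZFPM1, TAL1, GFI1B and SLC4A1. RUNX1 held 13 regions, and the highest had 325 and 401 reads against 4 and 1 (log2 fold 6.17). EPOR, the erythropoietin receptor gene, had 201 and 199 against 5 and 1 (log2 fold 5.04). Neither of these regions was in the diMe-Doxo or Acla list, which held 49.7% and 49.1% of the whole Doxo list. A gene that is not listed is not shown to be unchanged.

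Immediate early and stress genes, which are switched on within minutes to hours of a stimulus, had a region at 6 of 20 placed genes and at 3 of 17 starts. KLF4 held 586 and 654 reads at its start against 18 and 1 (log2 fold 5.00). EGR1 held 320 and 360 against 1 and 42 (log2 fold 3.01), so its fold rests on the control used. ATF3, a stress-induced factor, held 8 and 14 against 1 and 1 (ratio 5.50, counting interval 1.35 to 48.2). EGR3, named after its values were seen and without a known start here, had the highest fold of the group, 6.56. That region, in or within 1 kb of the gene, held 460 and 491 reads against 4 and 1. FOS, JUN and MYC were among the 14 with no listed region.

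Targets of p53 had a region at 5 of 11 placed genes and at 0 of 9 starts, and housekeeping genes at 4 of 9 genes and 0 of 8 starts. Anthracycline targets, efflux pumps and reductases had one at 6 of 9 genes and 0 of 7 starts. With the stricter limits the counts of genes were 2 of 9 for this group and 1 of 9 for housekeeping genes. TOP2A and TOP2B both code for forms of topoisomerase II, which doxorubicin traps. TOP2A had no listed region, and TOP2B had 1 region with 8 and 20 reads against 1 and 1 (log2 fold 2.81). ABCB1, which codes for the efflux pump P-glycoprotein, had 7 regions, the highest with 530 and 551 reads against 10 and 6 (log2 fold 5.07). Placed genes of this group had a median length of 67 kb, against 5.48 kb for the developmental factors and 8.33 kb for the erythroid genes.

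**Figure D5:**
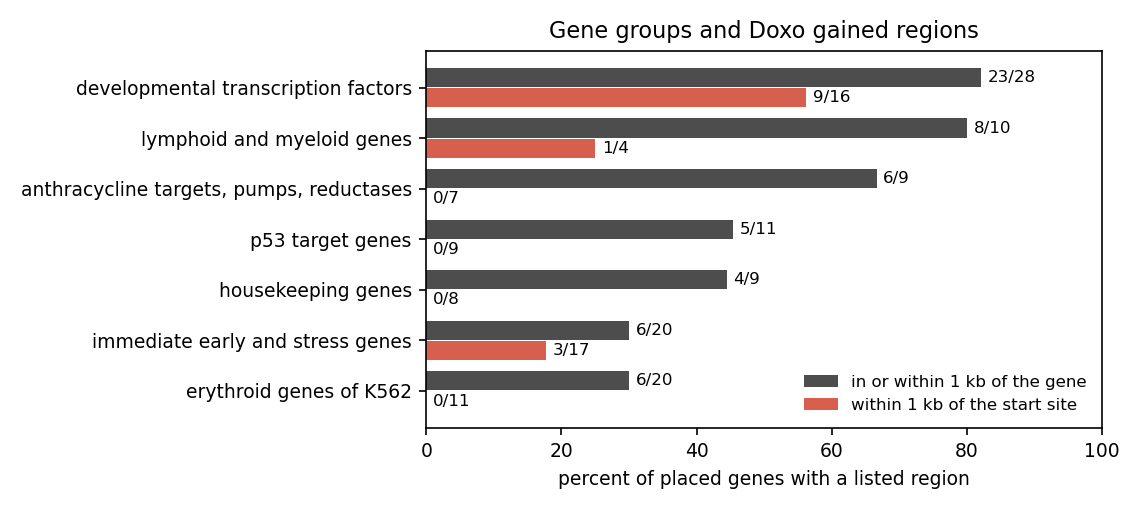
Percent of placed genes in each of 7 groups with a listed Doxo region in or within 1 kb of the gene (dark bars) and within 1 kb of the start site where the start is known (red bars), with the counts beside each bar. Developmental transcription factors have 9 of 16 starts with a region (12 within 2.5 kb), and the erythroid genes 0 of 11 (1 within 2.5 kb).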

How the data were processed

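ATAC-seq libraries of K562 cells, 2 treated with Doxo and 2 untreated, were taken as the authors' deposited list of gained regions, which has no header. The build is GRCh37 and the comparison tool DiffBind, per the submitters' processing notes. Aligner, peak caller and versions: not given in the sources used here. Per library, the deposited signal is a whole number, called reads here, multiplied by a fixed factor. Whether the authors set a floor or subtracted a background first is not given there. The group means and the fold are on the authors' log2 scale, and the deposited p-value and FDR are the authors' own. The deposited numbers of libraries with a called peak are counts by the authors. The highest listed p is 0.05 and the lowest log2 fold 1.5.

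Whole reads were recovered by dividing each signal by its library's step, and 100% of values were whole within 0.1 read. Medians, shares and spreads were computed with Python 3.11.15, pandas 2.3.3 and scipy 1.17.1. edgeR 4.0.16 (R 4.3.3) was run on recovered reads with the authors' factors and Benjamini-Hochberg adjustment over all 66720 regions, and DESeq2 1.42.0 as an alternative. The edgeR steps were tested on simulated data whose controls were drawn from the normalized Doxo signal. That test does not cover control values near 1 read. With 2 libraries against 2, an exact two-sided permutation test cannot go below p = 0.33, so none is given. Counting intervals are exact (Clopper-Pearson). Start coordinates are given as listed, and whether they count from 0 or 1 is not stated there.

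Genes were placed by GRCh37 spans entered from general knowledge, because the RefSeq tables used here are of GRCh38.p14. Of 161 spans 153 were kept, with the RefSeq chromosome and a length within 1.5-fold, 139 of them within 10%. Of the 95 with another kept gene within 5 Mb, 89 had the same shift between builds within 5 kb. Gene groups with at least 8 placed genes are given, and the planned share over all protein-coding genes was not computed. Regions were named as the 5 of lowest FDR, highest fold, greatest width, highest Doxo signal, largest gain among regions with a peak in both controls and largest difference between Doxo libraries at 50 reads or more, and the 5 windows of 100 kb with most regions, with up to 4 genes a group by fold at the start and the regions at the list's limits. Some results chosen by these rules are not reported here. The regions, the gene groups and the naming rules were chosen with earlier results of these data known. Alternatives tried were the scaling, the filter on low reads, stricter limits, added reads, distances and leaving out each library.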

Additional observations from a re-analysis of the deposited data

How the results depend on the processing

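No paired analysis was possible because the labels give 1 GEO sample per group and number no libraries. The count of regions called higher on reads (62521) was 65768 with no library factors and 66609 with DESeq2. It was 7848 with a filter of at least 10 Doxo and 2 control reads in every library, the number of regions then tested, and 0 with TMM over the list, which re-centres a list made of gains (1664 at an unadjusted p of at most 0.05), where the fitted median log2 change turned from 2.90 to -0.23. Leaving out 1 library gave 17423 to 61688, the lone library being assumed to vary like the other group. The median log2 fold (2.95) was 3.95 with no factors, 2.43 with 1 read added to every library, 3.66 under stricter limits (FDR 0.01, log2 fold 2), 2.68 with at least 2 reads in both controls, and 2.92 to 3.31 with 1 library left out. The SD between the Doxo libraries (0.576) was 0.300 at a mean of at least 50 reads and 0.383 under the stricter limits. The share with no control peak (82.6%) was 83.3% under the stricter limits, and 24.97% with 1 read in each control as the class. The width difference (0.47) was 0.28 to 0.82 with 1 library left out and 0.21 under the stricter limits. The share of regions near another (64.5%) was 50.01% within 5 kb, 77.1% within 20 kb and 57.7% under the stricter limits. The 13 gene starts with a region were 19 within 2.5 kb and 10 under the stricter limits. By group, genes with a region under the stricter limits went from 6 to 2 for anthracycline targets and from 4 to 1 for housekeeping genes, and lymphoid and myeloid starts went from 1 to 3 within 2.5 kb. At that distance developmental starts went from 9 to 12 and erythroid starts from 0 to 1. Except for the filter and TMM counts the cause was not tested. In the controls 55.8% and 57.4% of values are 1 read, and every fold over them depends on that value.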

Other observations

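Chromosome Y held 7 listed regions, all within 2 stretches. The highest, at chrY:9983905-9985557, had 141 and 122 reads with Doxo and 20 and 11 in the controls. Regions of chromosome Y can share reads with near-identical copies elsewhere, so these values are uncertain. They do not show that chromatin of chromosome Y was opened.

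A small number of regions held much of the Doxo signal. The top 667 regions by Doxo reads, 1% of the list, held 8.65% of the Doxo reads, and the top 6672 held 39.8%. Regions of 500 to under 1000 bp were the largest width class (27158) and held 29.1% of the Doxo reads, while the 914 of at least 2500 bp held 7.38%.

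The edgeR calls were less frequent where the control was open. Of regions with no control peak 95.9% were called, of those with a peak in both controls 77.4%, and of those with a mean of at least 100 Doxo reads 83.9%, beside 97.2% of those with a mean under 20. The control libraries differ most at deep regions, and the part of this in the calls was not tested.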
